A study of Rattus norvegicus with 18 samples.

Results

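The 18 libraries compared here were split by the share of their counts that came from the mitochondrial genome. For each pup, the expected counts of the 13 genes whose symbol starts with Mt- were summed and divided by the total expected count, which is called the mitochondrial share. Within each treatment group the 6 pups were ranked by this share. The top 3 of each group formed the high class, with 9 of the 18 samples, and the bottom 3 formed the low class, with the other 9. The classes were therefore chosen by a measured value, and the 13 Mt- genes are described without a test. The share itself was compared only between the treatment groups, within which it was ranked. All tests of genes were made on those without the Mt- prefix, called nuclear genes here, after scaling the libraries on those genes alone. A pair of abundant transcripts named after the mitochondrial genome sequence, but without the prefix, stayed among them and are described as such near the end. The share and the nuclear counts still came from the same libraries.

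The samples were prefrontal cortex (PFC) of Sprague Dawley rats at postnatal day 14, profiled by RNA-seq. The dams of the saline control group (SAL, n = 6) were gavaged with saline. The dams of the post-natal oxycodone group (PNO, n = 6) were gavaged with oxycodone at 15 mg/kg/day from parturition on. The dams of the in utero group (IUO, n = 6) received oxycodone before mating, beginning at 10 mg/kg/day and later reaching 15 mg/kg/day, and stayed on it through gestation up to weaning, so that their pups were also exposed after birth. No genetic change was made in any group. The labels do not give the sex, the dam or the litter of a pup, and the p-values below measure the spread between these pups, some of which may be littermates. Markers of excitatory neurons, interneurons and astrocytes were present in every library, with summed levels of at least 2575, 1261 and 3369 CPM (nuclear counts scaled to a library size common to all samples) for their lists.

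Mitochondria hold their own circular genome, which encodes 13 proteins of oxidative phosphorylation (OXPHOS), the chain of enzyme complexes that turns fuel into ATP. All other subunits of these complexes, and the proteins of the mitochondrial ribosome, are encoded in the nucleus, translated in the cytosol and imported. Complexes I, III, IV and V contain proteins from both genomes, whereas complex II is made of nuclear subunits only. In neurons, mitochondria are moved along axons and dendrites by kinesin motors and supply ATP and calcium buffering at synapses.

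The mitochondrial share ranged from 6.96% to 16.3% of the expected counts over the 18 pups. In SAL it was 16.3%, 10.6% and 10.2% in the high class (replicates 4, 5 and 1) and 10.1%, 9.92% and 7.31% in the low class (replicates 2, 3 and 6). In PNO it was 13.7%, 13.4% and 12.5% in the high class (replicates 4, 6 and 2) and 12.4%, 8.39% and 8.04% in the low class (replicates 3, 5 and 1). In IUO it was 12.5%, 10.9% and 10.7% in the high class (replicates 2, 1 and 3) and 10.5%, 9.44% and 6.96% in the low class (replicates 6, 4 and 5). The boundary between the classes was narrow. The third and the fourth pup differed by only 0.138 percentage points in SAL, 0.0806 in PNO and 0.157 in IUO. Because the ranking was made within groups, the classes overlapped in the pooled data, with 2 low samples above the lowest high sample and 4 high samples below the highest low sample. When the share was computed from the deposited TPM values, which are scaled to gene length, 2 samples (PNO replicates 2 and 3) changed class.

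**Figure D1:**
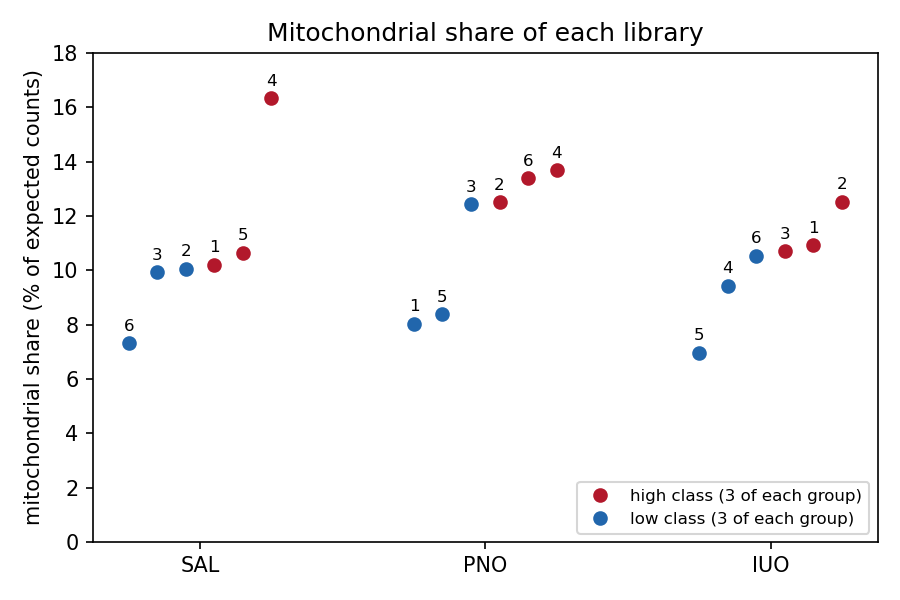
Mitochondrial share of each library (vertical axis, % of expected counts) in SAL, PNO and IUO, with the high class in red, the low class in blue and replicate numbers above the points. The classes touch in all 3 groups, and SAL replicate 4 stands apart at 16.3%.

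The share did not separate the treatment groups. It was 10.7% ± 2.99 in SAL, 11.4% ± 2.53 in PNO and 10.2% ± 1.86 in IUO (mean ± SD, n = 6 each). PNO exceeded SAL by 0.662 percentage points, IUO was below SAL by a difference of -0.564 and below PNO by a difference of -1.23. None of the 3 differences passed a two-sided exact permutation test (p = 0.682, 0.742 and 0.340, all 0.742 after Benjamini-Hochberg adjustment over the 3 pairs). The sign of the small differences depended on single pups. IUO minus SAL became 0.555 without SAL replicate 4 and 0.0790 without IUO replicate 5, and PNO minus SAL became -0.0254 without SAL replicate 6.

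All 13 Mt- genes contributed to the higher share. *Mt-co1*, the catalytic subunit of complex IV, held a median of 3.45% of all expected counts in the high class (2.78% to 4.37%) and 2.58% in the low class (1.90% to 3.55%). *Mt-cox3*, another core subunit of complex IV, held 1.51% (1.31% to 2.26%) and 1.15% (0.853% to 1.70%). *Mt-atp6*, the proton channel subunit of complex V, held 1.46% and 1.12%, and *Mt-cyb*, the cytochrome of complex III, held 1.29% and 0.938%. Of the complex I subunits, *Mt-nd4* held 0.885% and 0.717% and *Mt-nd1* 0.706% and 0.467%. The ranges of the classes overlapped for each of these genes, as they did for the share itself. Relative to the nuclear counts, the high minus low difference was between 0.30 (*Mt-nd3*) and 0.56 (*Mt-nd1*) on the log2 scale for the 13 genes. The composition of the mitochondrial counts moved little, with *Mt-co1* at a median of 27.5% of them in the high class and 27.4% in the low class, and *Mt-co2* at 8.52% and 9.22%. *Mt-nd6*, the only protein gene on the light strand, held 0.861% and 0.969% of them. These values chose the classes and carry no test.

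**Figure D2:**
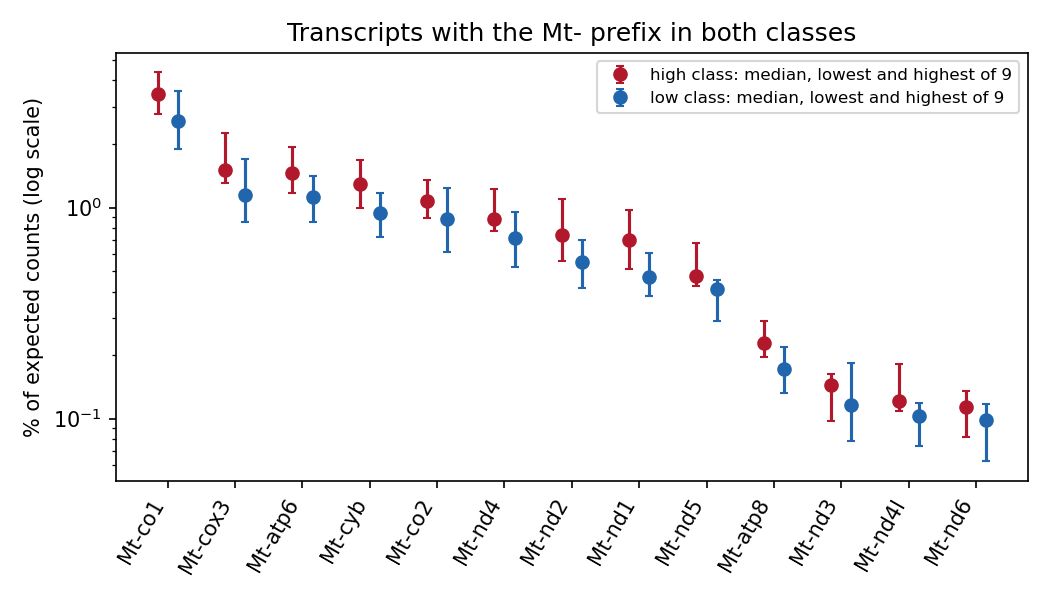
Share of all expected counts (vertical axis, %, log scale) held by each of the 13 Mt- genes, with points at the median and bars from the lowest to the highest of the 9 samples of the high (red) and low (blue) class. The medians of the high class lie above those of the low class for all 13 genes, while the ranges overlap.

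The first comparison asked which nuclear genes differed between the classes, with treatment group as a factor. In edgeR's quasi-likelihood test, 0 of 16157 nuclear genes (0.0%) passed a Benjamini-Hochberg adjusted p of 0.05, and the smallest adjusted p was 0.202. At an unadjusted p under 0.05 there were 2817 genes, of which 1015 (6.28% of those tested) were higher and 1802 (11.2%) lower in the high class. DESeq2's Wald test called 42 genes, 9 higher and 33 lower, and limma-voom called 0. Dependence of the difference on the treatment group was tested with 3 pups per class and group. The interaction of class and group called 0 genes (0.0%) with edgeR (1 without IUO replicate 3 or IUO replicate 4), with 214 genes at an unadjusted p under 0.05, and limma-voom also called 0, with 675 at an unadjusted p under 0.05. Without SAL replicate 4 or SAL replicate 6, the classes gave 1863 and 1827 genes at an unadjusted p under 0.05.

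The genes with a gene symbol and the smallest p-values, 10 in each direction, are named as a description, since none passed the adjustment (edgeR adjusted p = 0.229 for all 20). The smallest adjusted p of 0.202 belonged to a locus known only by an identifier, and such loci are not named here. Lower in the high class were *Nfic*, a nuclear factor I transcription factor (log2 difference -0.63 ± 0.13 SE), *Sfxn5*, a sideroflexin of the mitochondrial inner membrane (-0.34 ± 0.07), *Apc2*, a neuronal relative of the APC scaffold (-0.42 ± 0.09), and *Map1a*, a microtubule-associated protein of dendrites (-0.36 ± 0.08). *Sfxn5* lay between 98.4 and 155 CPM in the high class (median 130) and between 150 and 188 CPM in the low class (median 161), so that the classes overlapped only at their edges. *Map1a* lay between 477.5 and 667 CPM (median 613) and between 646 and 981 CPM (median 737). The other 6 were *Wfikkn2*, *Sntb1*, *Etv6*, *Anks1a*, *Iqsec1* (a guanine nucleotide exchange factor of the postsynapse) and *Abl1* (a tyrosine kinase), with log2 differences between -1.81 and -0.22. Higher in the high class were *Zfp958*, a zinc finger gene (0.71 ± 0.15), *Htr3a*, the serotonin-gated channel of a class of interneurons (0.58 ± 0.13), and *Nxf1*, the main mRNA export receptor (0.25 ± 0.06). *Htr3a* lay between 6.68 and 10.5 CPM in the high class (median 7.93) and between 3.83 and 7.64 CPM in the low class (median 5.62). The other 7 were *Myom3*, *Rps4y2*, *Ankrd10*, *Fam150b*, *Rmi1*, *Glt8d1* and *Zfp54*, with log2 differences between 0.28 and 1.06. All 20 had the same sign in SAL, PNO and IUO.

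For 2 nuclear genes (0.0124% of those tested) every high sample lay below every low sample, and for 0 genes (0.0%) above. Both were singled out after their values were seen. *Mief1*, an adaptor that recruits the fission enzyme Dnm1l to mitochondria, lay between 51.3 and 59.5 CPM in the high class (median 56.6) and between 59.98 and 65.96 CPM in the low class (median 60.9). Its log2 difference was -0.16 ± 0.04 SE (edgeR adjusted p = 0.229). *Natd1*, a gene of the acetyltransferase fold, lay between 20.81 and 23.67 CPM in the high class and between 23.71 and 33.42 CPM in the low class, with a log2 difference of -0.21 ± 0.06 SE.

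The class discards the distance between pups, and the gaps at its boundary were small. A second fit, listed as an alternative, therefore used the log2 of the share as a continuous term with treatment group as a factor. It gives a slope for each gene, the log2 change per doubling of the share, and its calls use the same samples and are no independent support for the classes. In this fit 6048 nuclear genes (37.4%) passed an adjusted p of 0.05 in edgeR's quasi-likelihood test, 2763 (17.1%) higher and 3285 (20.3%) lower with the share. Of these, 937 higher and 2125 lower genes changed by at least 1.5-fold per doubling. The slope had the same sign as the high minus low difference for 6047 of the 6048 genes. The interaction of the slope with treatment group called 0 genes (0.0%, smallest adjusted p 0.997), with 497 genes at an unadjusted p under 0.05. Without SAL replicates 4 and 6, the pups with the highest and the lowest share of that group, 3353 genes were called, and 4458 to 6229 were called when 1 pup at a time was left out. When libraries were scaled to all genes, the Mt- genes included, the split moved from 45.7% to 27.9% of the calls higher, and the median slope moved from 0.03 to -0.08.

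The same pattern was the main axis of variation among the nuclear genes. The first principal component of the log2 CPM values, centred within treatment groups, held 26.0% of the variance and had r = 0.887 with the log2 share over the 18 pups (Spearman's rho = 0.827, permutation p = 1e-05 and 4e-05, with 1e-05 the smallest that the permutations can give). Over the 5 relations computed, the adjusted values were 5e-05 and 0.000125. The r was 0.857 without the pups farthest from the median (SAL replicate 4 and IUO replicate 5), and 0.902, 0.929 and 0.884 within SAL, PNO and IUO. The second component had r = 0.141 (permutation p = 0.577, adjusted 0.577).

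Subunits of OXPHOS encoded in the nucleus rose with the mitochondrial share. In tissue samples, fewer cells of a type and less RNA per cell cannot be told apart, for these and all genes below. Of the 80 tested (of 81 in the files), 73 were called higher and 1 lower, against 17.1% and 20.3% of all nuclear genes. Their median slope was 0.61 on the log2 scale per doubling of the share, beside 0.03 over all nuclear genes. These subunits are short genes, and relative to the median slope of genes of like length, described further on, their median was 0.20. Their median high minus low difference was 0.15, or 0.05 relative to the median of genes of like length, with 77 of 80 above 0 and 0 called. Of all nuclear genes 8259 of 16157 were above 0, and of those under 1000 bases 1518 of 2211. The median slope of the 80 subunits was 0.59 in SAL, 0.71 in PNO and 0.44 in IUO. The mean log2 CPM of the 80 genes was lowest in SAL replicate 6 (6.61) and IUO replicate 5 (6.73), which had the lowest shares, and highest in PNO replicates 2 and 3 (both 7.48). PNO replicate 3 belongs to the low class, and the classes overlapped, with 6.92 to 7.48 in the high and 6.61 to 7.48 in the low class. Without SAL replicates 4 and 6, 61 of the 80 were called higher and 0 lower. With the rank within the group in place of the log2 share, which again discards the distance between pups, 28 of the 80 were called higher, and *Ndufa4* and *Cox4i1* below were not called (adjusted p = 0.076 for both).

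Complex I, which oxidises NADH, had 34 of 37 tested subunits called higher and 1 lower, with a median slope of 0.59. *Ndufa4* is counted in this list of complex I, although its product is now assigned to complex IV. It lay between 331 and 495 CPM in the high class (median 375) and between 265 and 537 CPM in the low class (median 332), with a slope of 0.59 ± 0.13 SE (adjusted p = 0.0019). *Ndufb10* had a slope of 0.65 ± 0.10 (adjusted p = 0.00012). The subunit called lower was *Ndufs1*, the largest core subunit, with a slope of -0.29 ± 0.08 (adjusted p = 0.011, and 0.066 without SAL replicate 4 and 0.056 without PNO replicate 1). In complex II, the succinate dehydrogenase, 3 of 4 subunits were called higher. *Sdhc*, its membrane anchor, had a slope of 0.52 ± 0.06 (adjusted p = 2.6e-05), and *Sdha*, its catalytic flavoprotein, had a slope of -0.16 ± 0.06 that was not called (adjusted p = 0.057, but 0.013 with DESeq2, 0.033 without SAL replicate 6 and 0.023 without PNO replicate 5).

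Complex III had 9 of 10 members called higher (median slope 0.66), with *Uqcrb* at 0.76 ± 0.12. *Uqcrc1*, a core subunit, had a slope of 0.22 ± 0.08 (adjusted p = 0.040, and 0.063 to 0.183 without SAL replicate 6 or PNO replicate 1, 4 or 5). Complex IV, the cytochrome c oxidase, had all 13 of its tested members called higher, with a median slope of 0.61. *Cox4i1* lay between 452 and 726 CPM in the high class (median 531) and between 364 and 742 CPM in the low class (median 492), with a slope of 0.61 ± 0.13 (adjusted p = 0.0017). *Cox7a2l* had a slope of 0.49 ± 0.08 and *Cox6a1* 0.51 ± 0.15 (adjusted p = 0.014, and 0.074 without SAL replicate 6 and 0.053 without PNO replicate 1). Complex V, the ATP synthase, had 14 of 16 called higher (median slope 0.63). *Atp5g3*, a subunit of its membrane ring, had a slope of 0.67 ± 0.10. The exceptions were the beta and alpha subunits, which form its head, with 0.12 ± 0.09 for *Atp5b* (beta, adjusted p = 0.34) and -0.09 ± 0.07 for *Atp5a1* (alpha, adjusted p = 0.33), neither called. The 6 subunits with the lowest slopes, picked after their values were seen, were *Ndufs1*, *Sdha*, *Atp5a1*, *Uqcrc2* (0.11), *Atp5b* and *Ndufa10* (0.17), with gene lengths from 1773 to 2474 bases. *Ndufab1*, at 2562 bases, had a slope of 0.54.

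**Figure D3:**
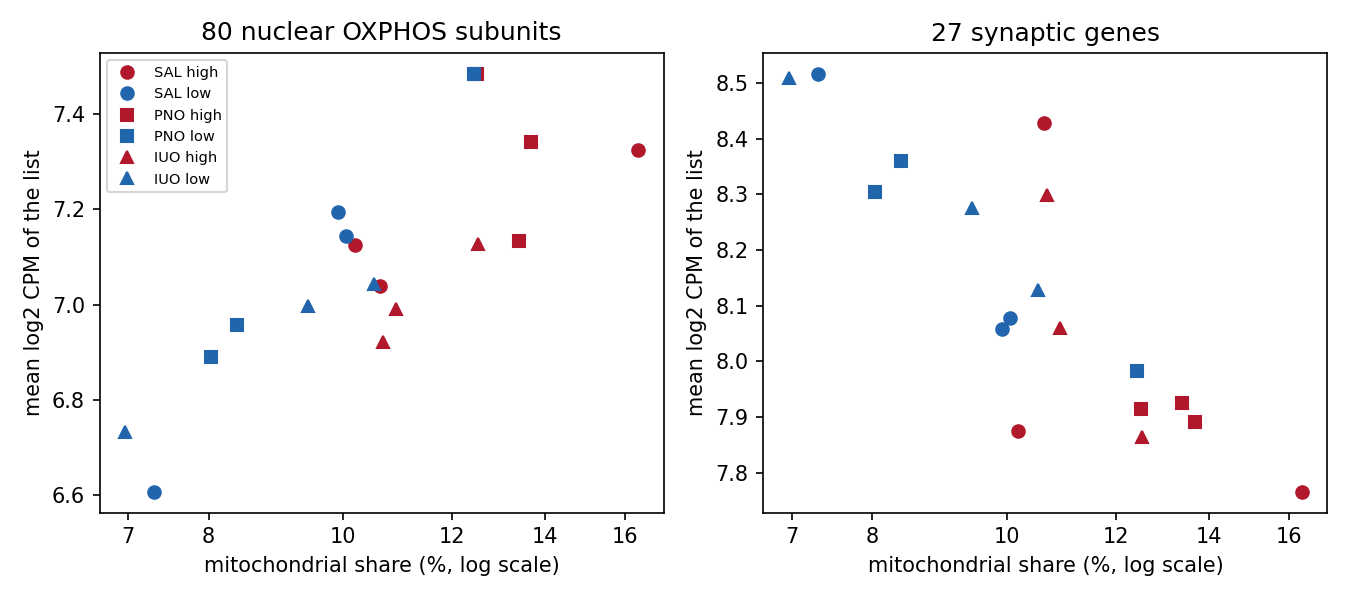
Mean log2 CPM (vertical axes) of the nuclear OXPHOS subunits (left) and of the synaptic genes (right) against the mitochondrial share (horizontal axes, %, log scale) in each pup, with shape for the treatment group and colour for the class. The OXPHOS means run from 6.61 to 7.48 and the synaptic means from 7.77 to 8.52, in opposite directions along the share, and the classes overlap on both.

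The promoters of 53 of the 80 OXPHOS subunits were matched by symbol in the RefSeq table (build GRCr8), as windows from 250 bases before to 50 bases after the start. NRF1 is a transcription factor known for its sites in promoters of respiratory genes, and its core GCGCANGCG was searched on both strands. It was found in 12 of the 53 windows (22.6%), in 11.3% of the windows of all genes tested and in 5.80% of all windows in the table. With a C required at its 3′ end, the search used first, it was found in 8 of the 53 (15.1%), in 8.40% and in 4.25%. The core AAGATGGCG of YY1 was found in 7 of the 53 (13.2%), in 3.10% and in 1.73%, and the ETS family motif CCGGAAGT in 7 of the 53 (13.2%), in 6.80% and in 3.81%. With GC required at its 3′ end, the YY1 core was found in 7 of the 53 (13.2%), in 1.55% and in 0.675%. Among windows of mitochondrial ribosomal protein genes the NRF1 core was found in 10 of 61 (16.4%), among those of cytosolic ribosomal protein genes in 8 of 69 (11.6%) and among those of synaptic genes in 3 of 20 (15.0%). In the same 3 lists the YY1 core was found in 9 of 61 (14.8%), 4 of 69 (5.8%) and 1 of 20 (5.0%). The ETS motif was found in 8 of 61 (13.1%), 9 of 69 (13.0%) and 0 of 20 (0.0%). A match is a description of the sequence only. The 3 OXPHOS windows with an NRF1 core and the smallest p for the slope are shown 5′ to 3′ on the strand of the gene, with each match in capitals, because they show the letters searched in genes that moved together. They are *Ndufb10* (chr10:14255917-14256216, minus strand, slope 0.65), *Ndufa11* (chr9:1637364-1637663, plus strand, slope 0.68, with overlapping matches) and *Cox7a2l* (chr6:16936324-16936623, plus strand, slope 0.49).
Ndufb10: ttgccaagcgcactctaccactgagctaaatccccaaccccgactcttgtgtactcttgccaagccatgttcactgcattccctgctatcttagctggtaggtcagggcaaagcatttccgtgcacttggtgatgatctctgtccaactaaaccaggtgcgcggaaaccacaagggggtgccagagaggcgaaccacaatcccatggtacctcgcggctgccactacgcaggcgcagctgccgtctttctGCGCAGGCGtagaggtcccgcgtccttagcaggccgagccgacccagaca
Ndufa11: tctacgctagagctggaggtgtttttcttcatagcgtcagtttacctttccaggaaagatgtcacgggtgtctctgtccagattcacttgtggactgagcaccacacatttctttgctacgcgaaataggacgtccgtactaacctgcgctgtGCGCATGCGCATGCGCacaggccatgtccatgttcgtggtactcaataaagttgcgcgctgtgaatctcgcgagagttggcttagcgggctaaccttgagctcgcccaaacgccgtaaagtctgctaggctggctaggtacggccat
Cox7a2l: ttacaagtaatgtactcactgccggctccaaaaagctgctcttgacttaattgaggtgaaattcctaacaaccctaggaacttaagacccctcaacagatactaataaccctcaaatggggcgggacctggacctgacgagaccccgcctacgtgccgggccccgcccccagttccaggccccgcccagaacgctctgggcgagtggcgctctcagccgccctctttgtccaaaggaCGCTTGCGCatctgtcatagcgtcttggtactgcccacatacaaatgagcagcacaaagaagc

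Ribosomal protein genes rose as well. Of 74 mitochondrial ribosomal protein genes tested (Mrpl and Mrps), whose products take part in making the 13 mitochondrial proteins, 60 were called higher (81.1%, beside 17.1% of all nuclear genes) and 0 lower, with a median slope of 0.48, or 0.14 relative to genes of like length. *Mrpl13* lay between 27.5 and 38.2 CPM in the high class (median 30.8) and between 21.1 and 38.9 CPM in the low class (median 28.1), with a slope of 0.60 ± 0.09 (adjusted p = 8.3e-05), and *Mrpl12* had 0.50 ± 0.11 (adjusted p = 0.064 with the rank within the group). Of 97 cytosolic ribosomal protein genes, 79 were called higher (81.4%) and 1 lower, with a median slope of 0.56, or 0.18 relative to genes of like length. *Rps18* lay between 232 and 316 CPM (median 267) and between 184 and 280 CPM (median 231), with a slope of 0.63 ± 0.07 (adjusted p = 2.6e-05), and *Rplp0* had 0.29 ± 0.08 (adjusted p = 0.064 without both SAL replicates 4 and 6) and *Rplp1* 0.48 ± 0.13 (adjusted p = 0.060 with myelin markers as a covariate). Several members of this family have near-identical copies, and how reads were shared between them was estimated by the authors' program. Without SAL replicates 4 and 6, 41 of 74 and 71 of 96 were called higher, and with the rank within the group 23 of 74 and 52 of 97.

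Genes for the upkeep of mitochondria were called in both directions. Of 21 genes of genome maintenance and transcription, 5 were called higher and 5 lower (23.8% each), near the 17.1% and 20.3% of all nuclear genes. Higher were *Ssbp1*, the single-strand DNA-binding protein of the mitochondrial genome (0.48 ± 0.11), and *Tfb2m*, a transcription initiation factor (0.42 ± 0.10, adjusted p = 0.0028, and 0.062 without both SAL replicates 4 and 6). Lower were *Polg*, the mitochondrial DNA polymerase (-0.45 ± 0.08), and the coactivators *Ppargc1a* (-1.38 ± 0.27, adjusted p = 0.00074) and *Ppargc1b* (-1.56 ± 0.35, adjusted p = 0.0020), known as promoters of mitochondrial biogenesis. *Ppargc1a* lay between 6.16 and 15.1 CPM in the high class (median 10.8) and between 8.72 and 34.0 CPM in the low class (median 15.5). *Tfam*, which packages the mitochondrial genome, had a slope of 0.19 ± 0.10 that was not called (adjusted p = 0.12).

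Of 17 genes of mitochondrial RNA processing and stability, 6 were called higher (35.3%, beside 17.1% of all nuclear genes) and 0 lower. Without PNO replicate 1 only 3 were called higher. Among the 6 were *Slirp* (0.71 ± 0.16, adjusted p = 0.126 with the rank within the group), a partner of Lrpprc in stabilising mitochondrial mRNAs, and *Grsf1* (0.39 ± 0.07), an RNA granule protein. Of 23 genes of import, chaperones and quality control, 12 were called higher (52.2%, beside 17.1% of all nuclear genes) and 2 lower (8.7%, beside 20.3%). *Slc25a4*, the ADP/ATP carrier, had 0.43 ± 0.08, *Vdac3*, an outer membrane channel, 0.48 ± 0.06, and *Hspe1*, the matrix co-chaperonin, 0.58 ± 0.12. *Tomm70*, an import receptor, had -0.98 ± 0.17. Of 17 genes of the TCA cycle and pyruvate entry, 8 were called higher (47.1%), such as the pyruvate carrier genes *Mpc1* (0.68 ± 0.16, adjusted p = 0.051 with the rank within the group) and *Mpc2* (0.62 ± 0.12) and *Suclg1* (0.51 ± 0.07). Called lower were 3 (17.6%, near the 20.3% of all nuclear genes), among them *Cs*, the citrate synthase (-0.48 ± 0.08), and *Dlat*, of the pyruvate dehydrogenase complex (-0.43 ± 0.08).

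Of 19 glycolysis genes, 6 were called higher (31.6%, beside 17.1% of all nuclear genes) and 2 lower (10.5%, beside 20.3%). *Aldoa* had 0.44 ± 0.12 (adjusted p = 0.077 without both SAL replicates 4 and 6, and 0.144 with the rank within the group) and *Ldhb* 0.47 ± 0.08. *Gapdh* had 0.30 ± 0.10 (adjusted p = 0.027, and 0.083 without SAL replicate 4, 0.126 without SAL replicate 6 and 0.062 without PNO replicate 1). *Hk1*, the hexokinase bound to mitochondria, had -0.54 ± 0.11. Without SAL replicates 4 and 6 only 1 glycolysis gene was called higher and 1 lower.

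Genes for the shape and transport of mitochondria were called in both directions. Of 17 tested, 9 were called lower (52.9%, beside 20.3% of all nuclear genes) and 4 higher (23.5%, beside 17.1%), with a median slope of -0.23, or -0.13 relative to genes of like length. Lower were *Dnm1l*, the fission GTPase (-0.87 ± 0.11, adjusted p = 5e-05), *Opa1*, the inner membrane fusion GTPase (-0.81 ± 0.12), and the kinesin heavy chains *Kif5a* (-0.39 ± 0.11) and *Kif5c* (-0.32 ± 0.09). The kinesin calls were lost with meningeal markers as a covariate (adjusted p = 0.074 and 0.063) and with the rank within the group (0.063 and 0.052), and that of *Kif5a* also with myelin markers (0.074). *Dnm1l* lay between 94.7 and 143 CPM in the high class (median 122) and between 97.4 and 198 CPM in the low class (median 144). Higher were *Fis1* (0.59 ± 0.13) and *Mff* (0.37 ± 0.08), receptors of the fission machinery that were not called with the rank within the group (adjusted p = 0.12 and 0.054), *Mfn1*, an outer membrane fusion GTPase (0.56 ± 0.08), and *Rhot2*, a GTPase that couples mitochondria to motors (0.40 ± 0.07).

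Synaptic genes fell with the share. Of 27 genes for presynaptic and postsynaptic proteins, 20 were called lower (74.1%, beside 20.3% of all nuclear genes) and 0 higher, with a median slope of -0.75, or -0.52 relative to genes of like length. The median was -0.67 in SAL, -0.65 in PNO and -0.71 in IUO. *Pclo*, a giant scaffold of the presynaptic active zone, lay between 40.0 and 102 CPM in the high class (median 60.8) and between 48.5 and 181 CPM in the low class (median 85.2), with a slope of -1.46 ± 0.24 (adjusted p = 0.00018). *Unc13a*, a vesicle priming factor, had -0.99 ± 0.12. On the postsynaptic side, *Nlgn2*, an adhesion molecule of inhibitory synapses, had -0.78 ± 0.12, and *Shank3*, a scaffold, -0.50 ± 0.11. *Camk2a*, a kinase abundant in excitatory neurons, is not among these 27 genes. It belongs to the list of excitatory neuron markers, of which 4 of 15 were called lower (26.7%, beside 20.3% of all nuclear genes). *Camk2a* lay between 126 and 323 CPM in the high class (median 207) and between 207 and 483 CPM in the low class (median 291). Its slope was -1.50 ± 0.18 (adjusted p = 2.8e-05). The 7 of the 27 synaptic genes not called included proteins of the vesicle and its release machinery. *Syt1*, the calcium sensor, had -0.20 ± 0.12 (adjusted p = 0.20), *Syp*, a vesicle membrane protein, -0.17 ± 0.12, and the SNARE genes *Snap25* and *Vamp2* 0.48 ± 0.19 (adjusted p = 0.055) and 0.16 ± 0.10. The slope of *Snap25* was opposite in sign to those of the 20 members called, and it was called higher with DESeq2 (adjusted p = 0.035), with library totals of the nuclear genes as the scaling (0.034) and without SAL replicate 1, SAL replicate 5 or PNO replicate 6 (0.032, 0.038 and 0.026). The mean log2 CPM of the 27 genes was highest in SAL replicate 6 (8.52) and IUO replicate 5 (8.51) and lowest in SAL replicate 4 (7.77). Without SAL replicates 4 and 6, 16 of the 27 were called lower.

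**Figure D4:**
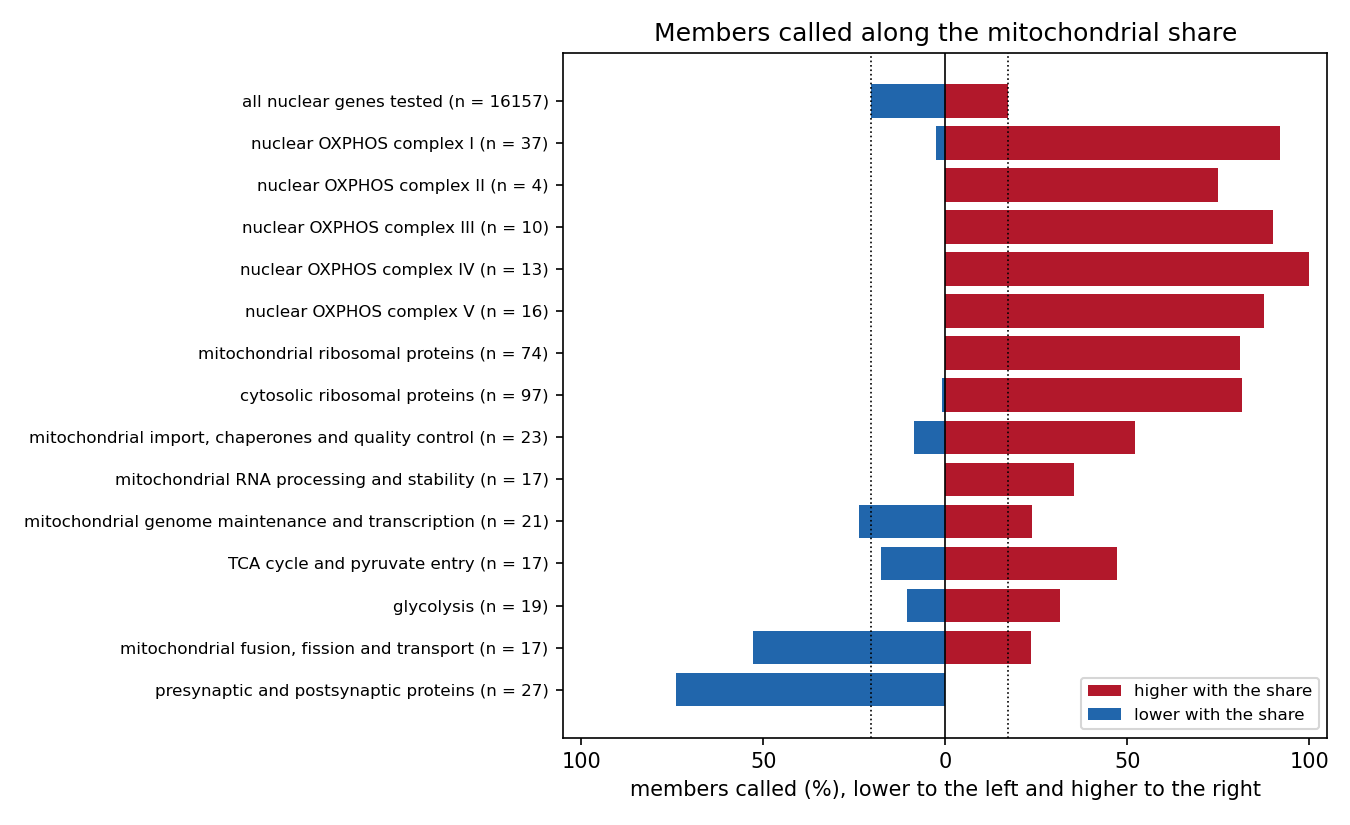
Percent of the members of each list called higher (red, to the right) or lower (blue, to the left) along the mitochondrial share, in edgeR at an adjusted p of 0.05, with dotted lines at the 17.1% and 20.3% of all nuclear genes. OXPHOS and ribosomal lists lie to the right and synaptic genes to the left.

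Over all nuclear genes, the 8 with the smallest p in each direction had adjusted p-values of 2.6e-05 or less. Lower with the share were *Ipcef1* (-1.82 ± 0.15), *Ski*, a repressor of TGF-beta signalling (-1.17 ± 0.10), *Mfhas1* (-1.75 ± 0.15), *Pcdhgc3*, a clustered protocadherin (-1.06 ± 0.10), *Epb41l1* (-0.89 ± 0.08), *Grik3*, a kainate receptor subunit (-2.38 ± 0.22), *Tln2*, a talin (-1.57 ± 0.15), and *Gramd1b* (-1.16 ± 0.11). *Grik3* lay between 6.105 and 22.3 CPM in the high class (median 13.1) and between 10.1 and 50.3 CPM in the low class (median 24.3). Higher were *Clasrp* (0.83 ± 0.08), *Snrpd1*, a core protein of the spliceosome (0.69 ± 0.07), *Tma7* (0.77 ± 0.08), *Chka*, a choline kinase (0.89 ± 0.09), *Med19*, of the Mediator complex (0.62 ± 0.07), *Zcchc7* (1.02 ± 0.12), and *Rps18* and *Sdhc*, given above.

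Transcript length moved with the share. The mean length of the gene behind a nuclear count, taken from the lengths in the deposited files, ran from 2789 to 3049 bases in the high class (median 2949) and from 2823 to 3302 bases in the low class (median 3027). Over the 18 pups it had r = -0.869 with the log2 share (rho = -0.847, permutation p = 2e-05 and 5e-05, adjusted 5e-05 and 0.000125), and -0.873 without the pups farthest from the median. The r within each group was -0.871 (SAL), -0.882 (PNO) and -0.892 (IUO). Across the 16157 genes, which are not independent replicates, Spearman's correlation of length with slope was -0.354. Over all nuclear genes 17.1% were called higher and 20.3% lower. Of 2211 genes under 1000 bases, 786 were called higher (35.5%) and 214 lower (9.68%), with a median slope of 0.42. Of 816 genes of 6000 bases or more, 16 were called higher (1.96%) and 394 lower (48.3%), with a median slope of -0.35. The OXPHOS subunits had a median length of 669 bases and the synaptic genes 3762 bases. When the median slope of the genes in the same length bin was subtracted, the median became 0.20 for OXPHOS subunits, 0.18 for cytosolic and 0.14 for mitochondrial ribosomal proteins, and -0.52 for synaptic genes. The libraries' RNA integrity was not given in the sources used here, and its part in these results was not tested.

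**Figure D5:**
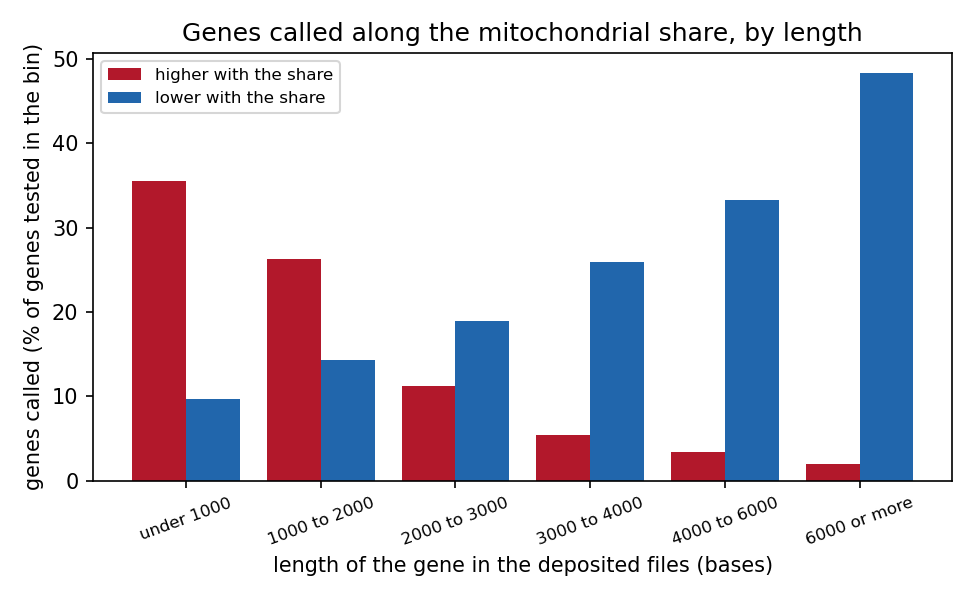
Percent of the nuclear genes in each length bin (horizontal axis, bases) called higher (red) or lower (blue) along the mitochondrial share. Calls are mostly higher under 1000 bases (786 of 2211 genes, 35.5%, beside 17.1% of all nuclear genes). They are mostly lower at 6000 bases or more (394 of 816 genes, 48.3%, beside 20.3% of all nuclear genes).

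The share of nuclear counts in the 100 most abundant genes rose with the mitochondrial share (r = 0.677, permutation p = 0.00224, adjusted 0.00373, rho = 0.631 with permutation p = 0.00629, adjusted 0.0105). It was 0.698 without the pups farthest from the median, and 0.875, 0.785 and -0.0902 within SAL, PNO and IUO, so that the relation was not seen within IUO. The nuclear counts here included the AY172581 transcripts of the mitochondrial genome, described below, which held 0.437% to 1.04% of all expected counts. Part of this relation may therefore be mitochondrial RNA set against the mitochondrial share, and the relation without these transcripts was not tested. The number of nuclear genes detected did not follow the share (r = -0.195, permutation p = 0.436, adjusted 0.545). Total expected counts were similar, with 1.86e+07 to 2.61e+07 in the high class and 1.84e+07 to 2.56e+07 in the low class.

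Markers of other cells and structures were checked beside these results, and the part of such cells in the results was not tested. Choroid plexus markers summed to 60.1 to 308 CPM in the high class (median 94.7) and 67.7 to 1299 CPM in the low class (median 146). All 11 of them were lower in the high class, 5 with an unadjusted p under 0.05 and 0 called, and 2 were called lower along the share (18.2%, near the 20.3% of all nuclear genes), such as *Kcnj13* (-2.18 ± 0.44), a count that ran from 1 (without SAL replicate 4, PNO replicate 1, 2, 4 or 6, or IUO replicate 1, 2, 3 or 4) to 4 (without PNO replicate 5). Their median slope of -1.36 rested on PNO replicate 1, without which it was 0.32. Meningeal markers summed to 114 to 380 CPM (median 189) and 146 to 425 CPM (median 244), with 4 of 9 called lower (44.4%, beside 20.3%), such as *Slc13a4* (-2.28 ± 0.42). That count moved with single pups. It was 1 without SAL replicate 4, SAL replicate 6, PNO replicate 5 or IUO replicate 5, 2 without any of 7 other pups, 6 without PNO replicate 1 or PNO replicate 6, and 7 without IUO replicate 3. Myelin markers summed to 3296 to 12231 CPM (median 6609) and 2026 to 17423 CPM (median 3615), with slopes above 0 for all 13 and only *Mbp* called (1.36 ± 0.45, adjusted p = 0.026, and 0.10 without SAL replicate 4, 0.092 without SAL replicate 6 and 0.056 without IUO replicate 5). Without PNO replicate 1, whose share was low, all 13 myelin markers were called higher and their median slope was 1.74 in place of 0.71. Striatal markers, which the PFC should hold little of, summed to 285 to 2356 CPM and 216 to 1634 CPM. Of these 12, 0 were called, beside 37.4% of all nuclear genes called in either direction. With myelin, choroid plexus, meningeal, striatal or blood markers as a covariate, 63, 73, 69, 73 and 73 of the 80 OXPHOS subunits were called higher and 16, 20, 16, 19 and 20 of the 27 synaptic genes lower. Of 11 microglial genes, 4 were called higher (36.4%, beside 17.1% of all nuclear genes) and 2 lower (18.2%, beside 20.3%), among them *Aif1* (0.65 ± 0.12) and *C1qa* (0.63 ± 0.15) higher and *Cx3cr1* (-0.85 ± 0.19) lower. Of 12 astrocyte markers, 2 were called higher and 2 lower (16.7% each, near the 17.1% and 20.3% of all nuclear genes), with a median slope of -0.11. The slopes ran from -1.75 ± 0.22 for *Slc1a2*, the main astrocyte glutamate transporter, to 0.57. Of 15 excitatory neuron markers 4 were called lower (26.7%, beside 20.3% of all nuclear genes) and 0 higher, with a median slope of -0.15 and slopes from -1.57 ± 0.25 for *Rorb*, a marker of cortical layer 4, to 0.74.

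The Y-linked gene *Eif2s3y* was under 2 CPM in 5 of the 9 high samples and 1 of the 9 low samples, and at 72.7 CPM or more in all others. The classes were therefore not balanced for its expression, and class was partly confounded with the likely sex of the pups. It is not called (adjusted p = 0.602 in the class fit). With the mean of *Eif2s3y* and *Kdm5d* as a covariate, the class fit called 0 genes with 1440 at an unadjusted p under 0.05, in place of 2817. The continuous fit called 5323, in place of 6048.

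A pair of abundant transcripts without the Mt- prefix rose with the share. Their prefix is the name of the sequence record of the rat mitochondrial genome, so they come from that genome and not from the nucleus. *AY172581.9* (958 bases) lay between 2655 and 5553 CPM in the high class (median 3784) and between 1845 and 5370 CPM in the low class (median 3131), with a slope of 1.15 ± 0.15. *AY172581.24* (1571 bases) lay between 2977 and 7087 CPM (median 4937) and between 2769 and 5518 CPM (median 3301), with a slope of 1.13 ± 0.13. As the share is made of counts from the same genome, the rise of both could be foreseen, and their slopes are a description only. Both are among the 6048 genes called. The files give no gene name for the 24 transcripts of this prefix, whose counts are not in the share. With all of them removed, 6078 genes were called along the share, in place of 6048.

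The integrated stress response had 3 of 12 members called higher (25.0%, beside 17.1% of all nuclear genes) and 0 lower, with *Ddit3* at 0.86 ± 0.12, and only 1 called without SAL replicate 4. Hypoxia response genes had 3 of 14 called higher (21.4%) and 1 lower (7.14%). Immediate early genes had 0 of 19 called higher and 3 lower (15.8%, beside 20.3%), and 5 lower without IUO replicate 1. Heat shock genes had 0 of 10 called and genes of dividing cells 0 of 10, beside 37.4% of all nuclear genes called in either direction. Both counts moved with single pups. Heat shock genes had 1 called higher and 2 lower without SAL replicate 5. They had 1 called lower without SAL replicate 6, PNO replicate 2, PNO replicate 6 or IUO replicate 2. Genes of dividing cells had 1 called higher without SAL replicate 4 or PNO replicate 5.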

How the data were processed

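RNA-seq libraries of 18 PFC samples (6 SAL, 6 PNO, 6 IUO) were made with a TruSeq V2 kit, pooled and sequenced as single reads. For each gene and sample, the authors deposited an expected count, which is an estimated count of reads that need not be whole. FPKM values deposited by the authors were not used, and TPM values deposited by the authors served only for the alternative share. The aligner and genome build are not given in the sources used here. Expected counts were rounded to whole numbers. Totals ranged from 1.84e+07 to 2.61e+07 per sample. No pair of samples within a treatment group agreed within sampling noise (chi-square per degree of freedom 9.22 to 122 over the 45 such pairs).

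Genes without the Mt- prefix that passed edgeR's filter on low counts were scaled by TMM and tested with edgeR 4.0.16 (quasi-likelihood, R 4.3.3), with class or log2 share and treatment group as terms and Benjamini-Hochberg adjustment at 0.05. CPM values are relative to the nuclear counts. Alternatives used DESeq2 1.42.0 and limma 3.58.1, and permutation tests used scipy 1.17.1. The code was tested on simulated data. Named were the 10 genes per direction with the smallest p between the classes, the 8 per direction along the share, and, from each list, the 2 most abundant members and the called member with the smallest p. Further members were named after their values were seen. Some members that the rule names are not reported here. The classes, gene lists and tests were chosen with earlier results of these data known. Intervals and p-values cover the spread between these pups.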

Additional observations from a re-analysis of the deposited data

Results flagged for a closer look

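Over 90 sets of 6 pups (1 measure in 1 treatment group), 5 had a pup that stood apart from the others of its group by Dixon's test, and chance gives about 1 in 20. SAL replicate 4 had a mitochondrial share of 16.3%, with 10.6% in the nearest SAL pup. In the same pup the AY172581 transcripts held 1.04% of the counts, with 0.592% in the nearest. SAL replicate 6 had a mean gene length of 3302 bases per nuclear count, with 3016 in the nearest, and a log2 CPM of 3.86 for *Sntb1*, with 3.14 in the nearest. IUO replicate 1 had 18659 nuclear genes detected, with 19129 in the nearest.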

How the results depend on the processing

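Between the classes, 42 genes were called with DESeq2 and 6048 with the log2 share as a continuous term, and 0 to 1 when 1 pup was left out (1 without SAL replicate 5 or IUO replicate 2). Along the continuous share the count was 3260 with a replicate block, 3353 without SAL replicates 4 and 6, 3390 with the rank within the group, 3062 with a 1.5-fold change required, and 4458 to 6229 with 1 pup left out. The interaction of class and group called 0 to 1 genes with 1 pup left out (1 without IUO replicate 3 or 4). With 1 pup left out, PNO minus SAL in the share ran from -0.0254 (without SAL replicate 6) to 1.78, IUO minus SAL from -1.25 to 0.555 (without SAL replicate 4, and 0.0790 without IUO replicate 5), and IUO minus PNO from -1.90 to -0.583. The causes of these shifts were not tested. The labels give no meaning to shared replicate numbers, and not every same-numbered pair of pups had a correlation over 0.1 (-0.287 to 0.472, 8 of 18 over 0.1), so the numbers were not treated as pairs. Some pairs did deviate together, such as replicates 1, 3, 4 and 5 of SAL and PNO (0.294, 0.472, 0.430 and 0.190). With the replicate block 55 of 80 OXPHOS subunits were called higher and 13 of 27 synaptic genes lower. Of the named genes called along the share, 17 were not called with the rank within the group (*Aldoa*, *Cox4i1*, *Cox6a1*, *Fis1*, *Gapdh*, *Kif5a*, *Kif5c*, *Mbp*, *Mff*, *Mpc1*, *Mrpl12*, *Ndufa4*, *Rplp0*, *Rplp1*, *Slirp*, *Tfb2m* and *Uqcrc1*, adjusted p up to 0.243), 13 with the replicate block (*Aldoa*, *Cox6a1*, *Fis1*, *Gapdh*, *Kif5a*, *Kif5c*, *Mbp*, *Ppargc1b*, *Rplp0*, *Rplp1*, *Shank3*, *Tfb2m* and *Uqcrc1*, adjusted p up to 0.226) and 8 without SAL replicates 4 and 6. Of 22 genes named between the classes, none changed sign under the alternatives run, and DESeq2 called 16. Of 88 genes named along the share, 72 of 3253 values were no longer called, 21 were newly called, and 1 changed sign, *Uqcrc2* (-0.00886, not called) with libraries scaled to the total count of all genes.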
